A study of Mus musculus with 8 samples.

Results

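Genes of the integrated stress response were followed in newborn mouse cerebral cortex (postnatal day 0) of ERRγ-/- and of wild-type animals. The set held 10 genes, Atf4, Atf5, Atf3, Ddit3, Trib3, Ddit4, Sesn2, Asns, Phgdh and Psat1. Every probe that the platform annotation gives to 1 of these symbols was taken, which made 17 of the 25697 probes on the array, and 10 of the 16561 genes named there. ERRγ, the product of Esrrg, is an orphan nuclear receptor that is known to switch on genes of oxidative metabolism, and the comparison asked which transcripts differ in newborn cortex that lacks it. Each genotype had 2 biological samples. RNA of a sample was put on a first array and a b array of the Illumina bead type, so that 8 arrays came from 4 samples. The sources used here do not give the strain or sex of the mice, how the null allele was made, or whether a sample was 1 animal or a pool. The p-values therefore refer to these samples and no more. They draw mainly on a variance pooled over all genes tested, and some of the spread among samples may be technical.

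The integrated stress response is the common pathway by which cells answer lack of amino acids, unfolded protein in the endoplasmic reticulum, viral RNA, haem shortage and mitochondrial trouble. Its kinases phosphorylate the initiation factor eIF2, which lowers general protein synthesis while raising translation of ATF4 through short open reading frames ahead of its coding sequence. ATF4 then activates genes for amino acid synthesis and uptake, for aminoacyl-tRNA synthetases, and, under lasting stress, for factors such as CHOP that can lead to cell death. Because ATF4 is controlled largely at translation, the transcripts of its targets are the usual transcript readout of the pathway.

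Most transcripts of the set were detected in newborn cortex, and none of the detected ones passed the test between the genotypes. Of the 10 genes, 7 were read by at least 1 probe above background (detection p under 0.05) on all 8 arrays, and these were Atf4, Atf5, Ddit3, Ddit4, Asns, Phgdh and Psat1. Atf3, Trib3 and Sesn2, which had 6 probes in all, were not above background on any array of either genotype. None of the 7 tested genes passed the threshold (0 of 7 at a limma adjusted p under 0.05, where 0.0123% of the 8098 genes tested did), and neither did any of their 11 probes (0 of 11, where 0.00864% of 11568 probes did). At an unadjusted p under 0.05 the count was again 0 of 7, where 7.22% of all genes lay. It was 3 of 7 with median scaling, where 1051 of the 8098 genes lay below that p, and 2 of 7 with no background correction, where 538 did. The differences were 6 higher and 1 lower in ERRγ-null cortex (50.6% of all genes were higher), with a median of 0.04 on the log2 scale, beside 0.00 over all genes tested.

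Before normalization the null arrays were brighter on average, with overlapping ranges. Quantile normalization then gave all arrays the same distribution by construction, so their likeness after it is no check. Mean probe intensity before normalization ran from 547 to 639 on the ERRγ-null arrays and from 390 to 565 on the wild-type arrays, and each array had from 11022 to 12013 probes above background. The single Esrrg probe was not above background on any array, with a log2 signal of 4.97 and 4.92 in the null samples and 4.92 and 4.93 in the wild-type samples, so it does not check the genotype labels. Of 7 cortical projection neuron marker genes on the array, 5 were above background on all arrays, among them genes for deep layer factors, whereas Neurod6 was not above background on any. Over 10 lists of cell type markers 0 genes passed the threshold and the median differences ran from -0.07 to 0.37. The highest was that of the 2 tested meninges and fibroblast markers, Dcn and Igf2, with mean log2 signals of 7.87 and 9.24 in the null samples and 8.27 and 8.09 in the wild-type samples, so that null sample 2 stood apart. The part of these cells in the members' values was not tested. With 2 samples per genotype, the precision of all values is limited by their number.

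**Figure D1:**
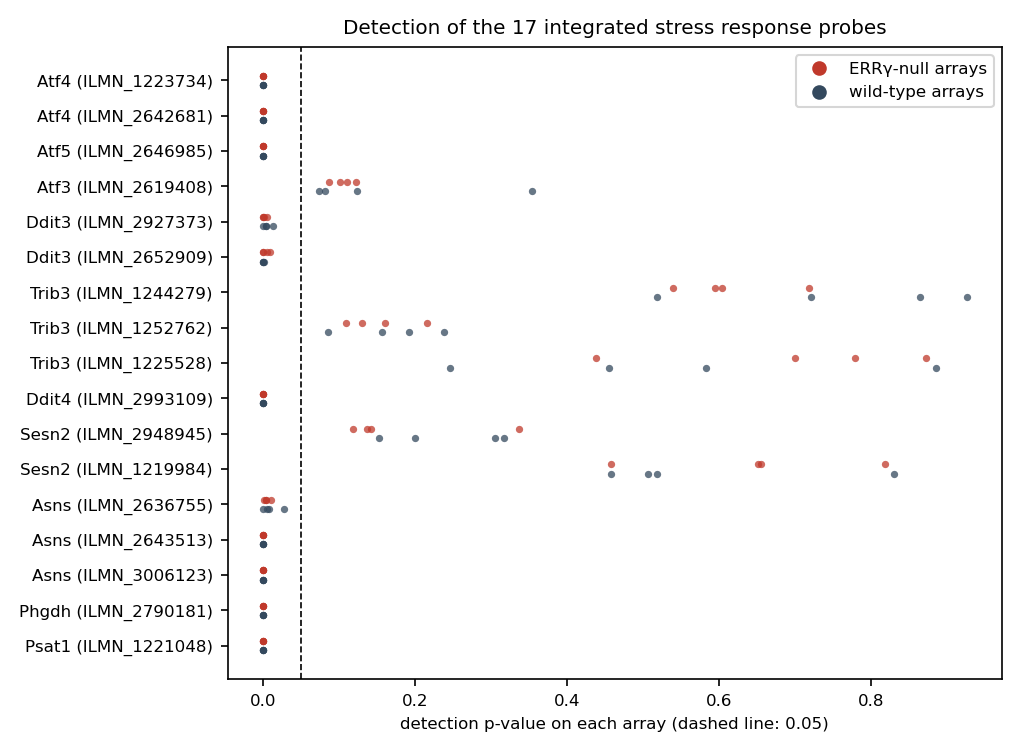
Detection p-value (horizontal axis) of each of the 17 probes on each array, with the 4 ERRγ-null arrays above the 4 wild-type arrays of a probe and a dashed line at 0.05. The 11 probes of Atf4, Atf5, Ddit3, Ddit4, Asns, Phgdh and Psat1 lie left of the line on all arrays, and the 6 probes of Atf3, Trib3 and Sesn2 lie right of it on all arrays.

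Atf4, the transcription factor at the centre of the pathway, had a slightly higher signal in the null samples with both of its probes, and neither difference passed the test. Probe ILMN_2642681 had a normalized log2 signal of 11.37 and 11.63 in the ERRγ-null samples, against 11.41 and 11.11 in the wild-type samples. One null sample lay between the wild-type ones, so the genotypes overlapped. The means were 11.50 ± 0.18 in null and 11.26 ± 0.21 in wild-type cortex (SD, n = 2 each), a difference of 0.25 (SE 0.17, 95% confidence interval from -0.11 to 0.61, limma adjusted p = 0.832). Its other probe, ILMN_1223734, lay at 10.21 and 10.45 in the null samples and at 10.07 and 10.17 in the wild-type samples. Here both null samples were above both wild-type ones, by 0.21 on average (SE 0.16, interval from -0.14 to 0.56, limma adjusted p = 0.882 over 11568 probes). On single arrays the first of these probes read 11.61, 11.14, 11.77 and 11.50 in null cortex and 11.46, 11.35, 11.28 and 10.93 in wild-type cortex. Arrays of 1 null sample were thus as far apart as 0.46, which is more than the genotype difference.

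Atf5, a relative of Atf4 that is likewise controlled at translation and is known for its part in the mitochondrial unfolded protein response, gave nearly the same mean in both genotypes. Its log2 signal was 7.85 and 8.18 in the null samples, against 8.02 and 7.97 in the wild-type samples. Both wild-type samples lay between the null ones. The difference was 0.02 with a 95% interval from -0.33 to 0.37 (limma adjusted p = 0.992).

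Atf3, a stress-induced repressor that also behaves as an immediate early gene in neurons, was read by 1 probe that stayed at background. Its detection p ran from 0.0739 to 0.355, and its log2 signal from 5.42 to 5.64 on the null arrays and from 5.09 to 5.76 on the wild-type arrays. No fold is given, since the probe was not above background in either genotype.

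**Figure D2:**
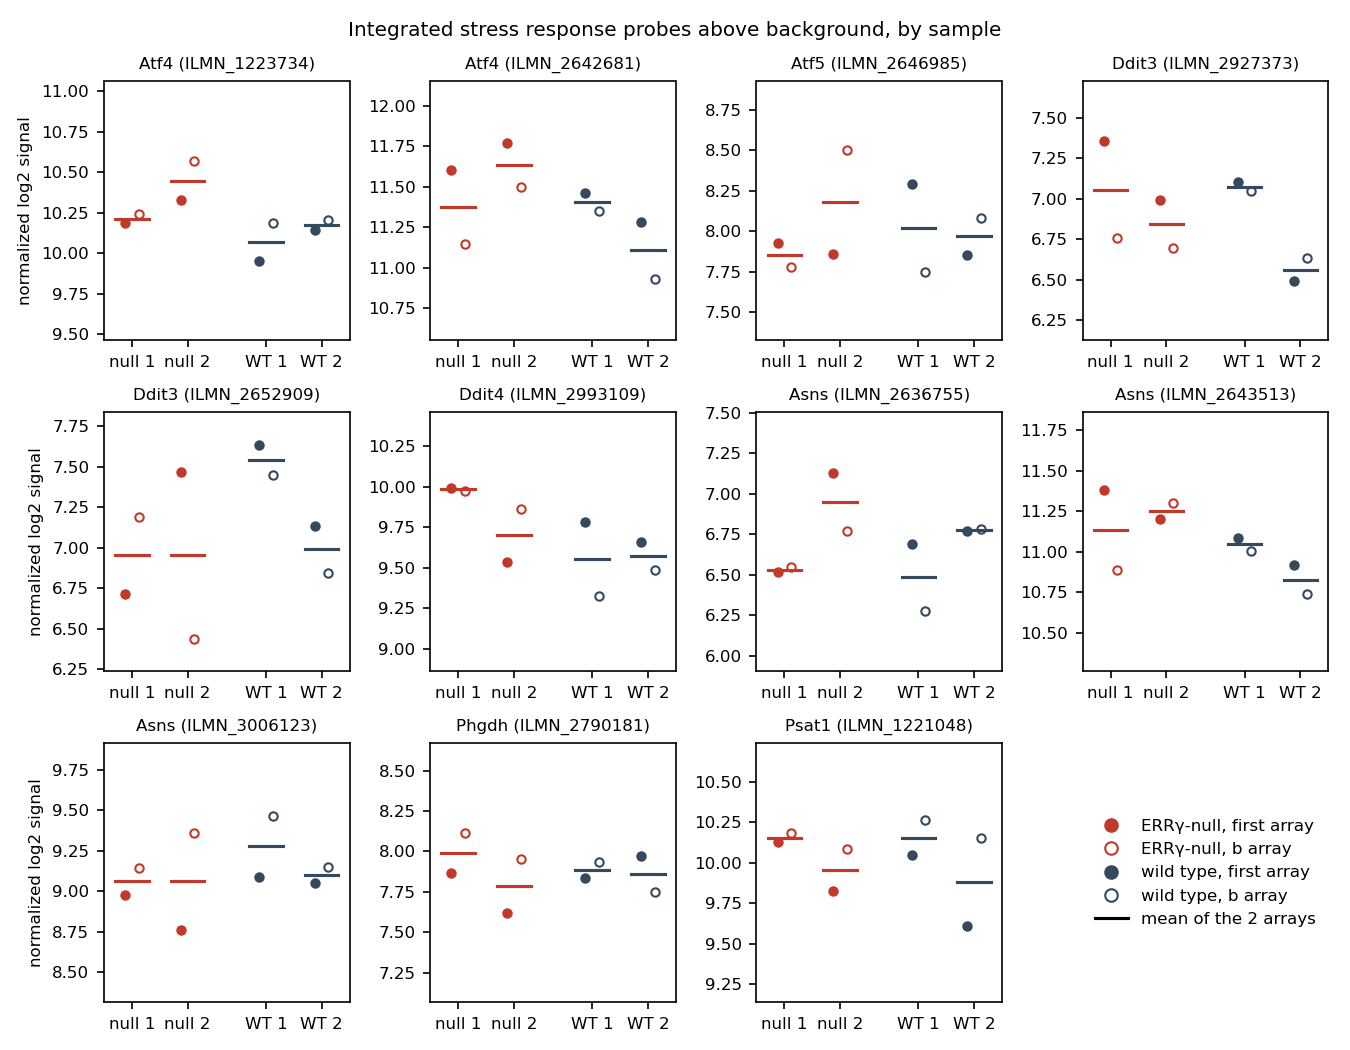
Normalized log2 signal (vertical axis) of the 11 probes above background, with the ERRγ-null samples left of the wild-type samples, filled points for first arrays, open points for b arrays and bars for the mean of the 2 arrays of a sample. Every panel spans the same range of log2 units; points of 1 sample are often as far apart as the genotypes, as with Ddit3, where arrays of ERRγ-null sample 2 lie at 7.47 and 6.44.

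Ddit3 encodes CHOP, the factor that ATF4 induces under lasting stress and that promotes cell death, and its 2 probes differed in opposite directions. Probe ILMN_2652909 had a log2 signal of 6.95 in both null samples, against 7.54 and 6.99 in the wild-type samples. The null samples lay just below the lower wild-type sample, and the difference was -0.31 (SE 0.18, interval from -0.70 to 0.07, limma adjusted p = 0.780). Without wild-type sample 1 the difference was -0.04, and without wild-type sample 2 it was -0.59. The equal sample means hid a wide gap between arrays, since null sample 1 read 6.71 and 7.19 and null sample 2 read 7.47 and 6.44. That gap of 1.03 was the widest between arrays of 1 sample for any of the 11 probes. Probe ILMN_2927373 lay at 7.06 and 6.84 in the null samples and at 7.07 and 6.56 in the wild-type samples, and its difference was 0.13 (SE 0.19, interval from -0.27 to 0.53, limma adjusted p = 0.954). The sign of a Ddit3 difference thus depended on the probe, and both intervals spanned 0.

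Trib3 encodes a pseudokinase induced by ATF4 and CHOP, and it feeds back on both. All 3 of its probes were at background on the 8 arrays, with detection p from 0.0852 to 0.926. The probe with the lowest detection p, ILMN_1252762, read 5.24 to 5.52 on the null arrays and 5.22 to 5.65 on the wild-type arrays. No fold is given here either.

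Asns encodes asparagine synthetase, the enzyme that makes asparagine from aspartate and one of the best known targets of ATF4. Its promoter is shown here beside those of Atf3 and Trib3, because these were the members whose promoter held a match to the C/EBP-ATF composite element, the kind of site to which ATF4 binds together with a C/EBP partner. The windows reach from 250 bases before to 49 bases after the first base of the transcript on GRCm38.p6, from RefSeq, and run 5′ to 3′ along the gene's own strand, with the match in capitals.

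Asns, chr6:7693160-7693459, minus strand: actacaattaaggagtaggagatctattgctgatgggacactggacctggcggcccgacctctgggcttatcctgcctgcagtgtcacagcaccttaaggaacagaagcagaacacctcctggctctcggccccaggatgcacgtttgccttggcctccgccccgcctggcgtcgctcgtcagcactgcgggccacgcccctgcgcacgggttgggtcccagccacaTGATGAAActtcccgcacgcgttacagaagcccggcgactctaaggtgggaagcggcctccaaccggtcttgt

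Atf3, chr1:191183284-191183583, minus strand: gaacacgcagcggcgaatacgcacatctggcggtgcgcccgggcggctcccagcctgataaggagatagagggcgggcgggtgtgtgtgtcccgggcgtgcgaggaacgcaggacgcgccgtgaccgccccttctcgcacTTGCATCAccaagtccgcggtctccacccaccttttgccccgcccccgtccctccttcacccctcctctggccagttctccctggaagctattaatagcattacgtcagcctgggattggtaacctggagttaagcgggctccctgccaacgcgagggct

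Trib3, chr2:152344011-152344310, minus strand: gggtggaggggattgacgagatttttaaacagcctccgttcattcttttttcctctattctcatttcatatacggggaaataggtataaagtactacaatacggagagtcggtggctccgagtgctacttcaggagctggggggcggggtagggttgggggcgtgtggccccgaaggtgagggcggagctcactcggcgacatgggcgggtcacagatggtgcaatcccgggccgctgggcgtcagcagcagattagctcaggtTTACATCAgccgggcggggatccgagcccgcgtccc

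The letters searched were TGATGNAA on both strands, and 3.97% of 32851 RefSeq promoter windows held them. Among the members, 3 of 12 windows did, where Atf5 and Psat1 had more than 1 window each. In Asns the match TGATGAAA began at position -23, where -1 is the base before the start, and ran along the gene's strand. Atf3 held TTGCATCA from position -110, and Trib3 held TTACATCA from base 15 of the transcript, both of them matches on the opposite strand. The element of the estrogen-related receptors, searched as TNAAGGTCA on both strands, was found in 1.28% of all windows and in 0 of the 12 member windows. Such a match is a run of letters and no measure of binding. Among the genes with a match, Asns was detected on all arrays, whereas Atf3 and Trib3 were not detected on any.

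The 3 Asns probes were all above background on all arrays and gave differences of both signs, none of which passed the test. Probe ILMN_2643513 had a log2 signal of 11.14 and 11.25 in the null samples, against 11.05 and 10.83 in the wild-type samples. Both null samples were higher, and the means of 11.19 ± 0.08 in null and 10.94 ± 0.15 in wild-type cortex (SD, n = 2 each) differed by 0.26 (SE 0.16, interval from -0.08 to 0.60, limma adjusted p = 0.802). That is a 1.20-fold higher signal, with an interval from 0.945-fold to 1.51-fold. Probe ILMN_2636755 read 6.53 and 6.95 in the null samples and 6.48 and 6.77 in the wild-type samples, a difference of 0.11 (limma adjusted p = 0.963) with overlapping samples. Probe ILMN_3006123 read 9.06 in both null samples, against 9.28 and 9.10 in the wild-type samples, a difference of -0.13 (interval from -0.47 to 0.21, limma adjusted p = 0.941). With the last of these probes the null samples lay below the wild-type ones, the reverse of ILMN_2643513. Averaging the kept probes of Asns gave a difference of 0.08. Which transcript forms each probe reads was not tested.

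**Figure D3:**
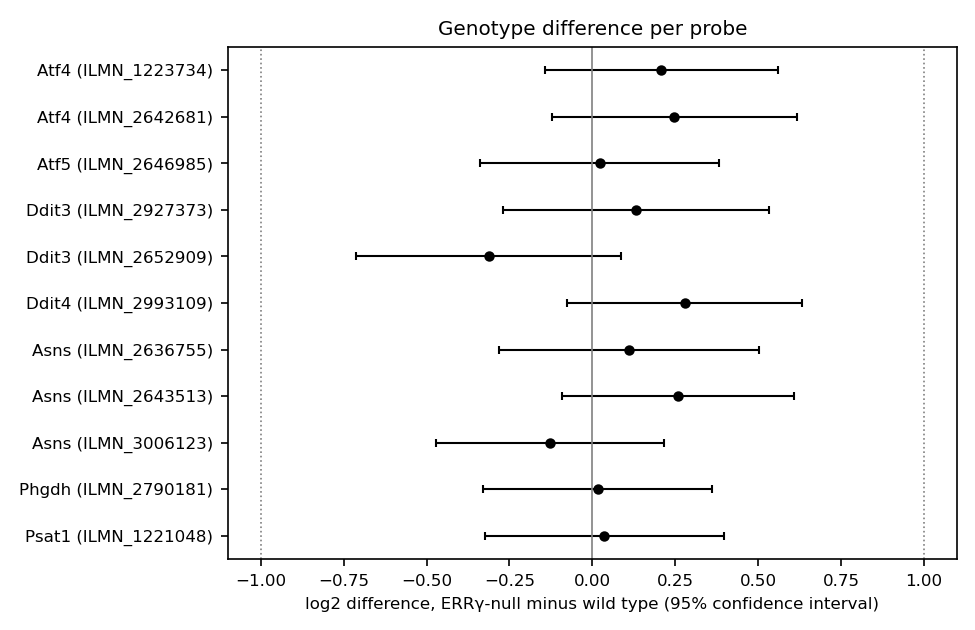
Log2 difference between ERRγ-null and wild-type cortex (horizontal axis) for each of the 11 probes above background, with its 95% confidence interval from the limma fit over 11568 probes. Every interval spans 0 and stays within -1 and 1 (dotted lines), and Ddit3 and Asns each have probes on both sides of 0.

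Phgdh and Psat1, which encode the first enzymes of serine synthesis from a glycolytic intermediate and are further targets of ATF4, had nearly the same mean in both genotypes. Phgdh, which in brain is known to be made mainly by radial glia and astrocytes, had a log2 signal of 7.99 and 7.79 in the null samples, against 7.89 and 7.86 in the wild-type samples. The wild-type samples lay between the null ones, and the difference was 0.02 (interval from -0.32 to 0.35, limma adjusted p = 0.992). Psat1 read 10.16 and 9.95 in the null samples and 10.16 and 9.88 in the wild-type samples, with a difference of 0.04 (interval from -0.31 to 0.39, limma adjusted p = 0.991). For both enzymes the samples overlapped. In a bulk tissue fewer cells of a type and less RNA per cell cannot be told apart. Of 9 tested radial glia and intermediate progenitor markers 1 was higher and 8 were lower in null cortex (median -0.07, none past the threshold), with mean log2 signals of 8.17 and 8.18 in the null samples and 8.29 and 8.28 in the wild-type samples. Astrocyte markers had a median of 0.07 over 6 genes, with means of 8.02 and 7.97 in the null samples and 8.08 and 7.76 in the wild-type samples. The part of these cells in the Phgdh signal was not tested.

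Ddit4 and Sesn2 encode brakes on the growth kinase mTORC1, REDD1 and a leucine-sensing sestrin, and Ddit4 is known to answer hypoxia and glucocorticoids as well as ATF4. Ddit4 had a log2 signal of 9.98 and 9.70 in the null samples, against 9.55 and 9.57 in the wild-type samples. Both null samples were above both wild-type samples, and the means of 9.84 ± 0.20 in null and 9.56 ± 0.02 in wild-type cortex (SD, n = 2 each) differed by 0.28 (SE 0.16, interval from -0.06 to 0.62, limma adjusted p = 0.780). This was the largest positive difference among the 7 tested members, 1.21-fold with an interval from 0.956-fold to 1.54-fold. The single arrays overlapped, with 9.99, 9.97, 9.54 and 9.86 in null cortex and 9.78, 9.32, 9.66 and 9.49 in wild-type cortex. With the first arrays alone the Ddit4 difference was 0.05, and with the b arrays alone it was 0.51 (limma adjusted p = 0.680). Sesn2 was at background with both probes, at a detection p from 0.119 to 0.337 for ILMN_2948945 and from 0.457 to 0.831 for ILMN_1219984.

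Samples of the genotypes did not overlap for 3 of the 7 tested members, with Ddit4 and Asns higher and Ddit3 lower in ERRγ-null cortex. Over all genes tested 35.1% did not overlap (17.7% higher and 17.3% lower), so a share of that size is close to the background of the comparison. By probes, 5 of the 11 did not overlap, against 35.1% of all 11568 probes kept. Between arrays of different genotypes the median absolute log2 difference of the 11 probes was 0.24, against 0.27 between different samples of 1 genotype and 0.24 between the 2 arrays of 1 sample. For all probes kept it was 0.21 between genotypes, 0.21 between samples of 1 genotype and 0.18 between arrays of 1 sample. None of the 95% intervals of the 7 members reached a log2 difference of 1 or -1.

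Before normalization some member probes separated the genotypes, including probes that were not above background on any array. Unnormalized intensity of Atf4 probe ILMN_2642681 ran from 2966 to 3868 on the null arrays and from 2042 to 2448 on the wild-type arrays, so that all 4 null arrays were above all 4 wild-type arrays. The same held for Asns probe ILMN_2643513, with 2486 to 2813 on the null arrays against 1549 to 1946 on the wild-type arrays, and for Ddit4, with 906 to 1364 on the null arrays against 664 to 876 on the wild-type arrays. Trib3 probe ILMN_1244279 and Sesn2 probe ILMN_2948945, at background on all arrays, also had every null array above every wild-type array. Of the 11 member probes kept, 3 had all null arrays above all wild-type arrays on this scale and 0 had them all below. Of all probes kept, 15.6% had them all above and 0.0173% all below. After quantile normalization 0 of the 11 member probes separated the arrays, beside 2.70% of all probes higher and 2.97% lower. With the arrays scaled by their medians, the median difference of all genes was 0.17 and that of the 7 members 0.22, so that the members lay 0.05 above the shift of all genes. Of genes with an unadjusted p below 0.05, 93.8% were higher under this scaling, against 49.9% under quantile normalization. Under that scaling Ddit4 differed by 0.47, Asns by 0.44 and Atf4 by 0.42, still with 0 members past the threshold (smallest limma adjusted p = 0.279).

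**Figure D4:**
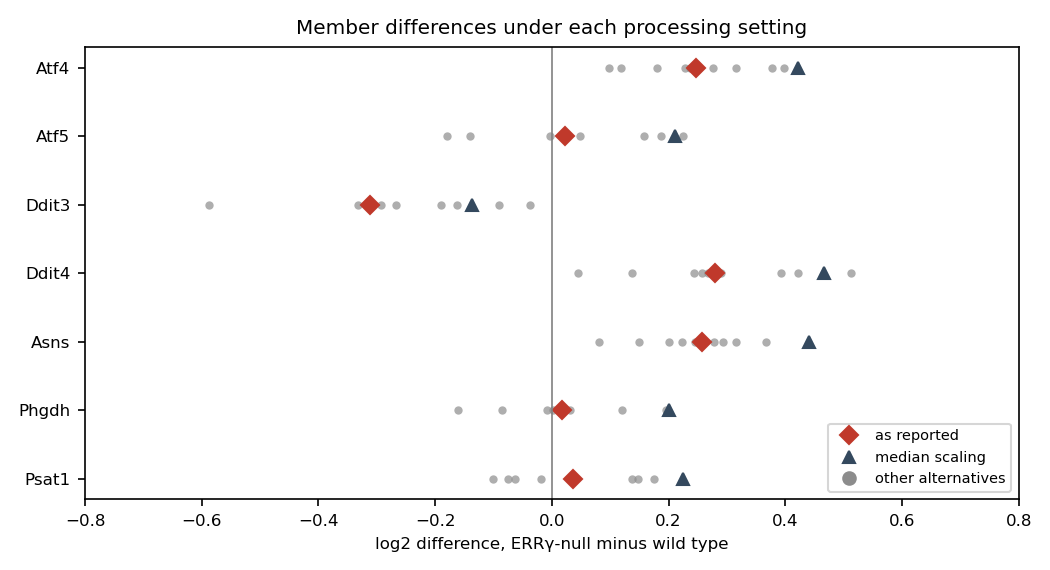
Log2 difference between ERRγ-null and wild-type cortex (horizontal axis) of the 7 tested members under the reported processing (diamonds), median scaling (triangles) and the other alternatives (circles). Atf4, Asns and Ddit4 stay above 0 and Ddit3 stays below 0 throughout, whereas Atf5, Phgdh and Psat1 lie on both sides of 0. Settings that change only the variance or the genes tested return the reported difference, and most settings read the same probe of a gene.

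Related genes of the pathway were also without a call between the genotypes. Of 160 genes in 12 lists, 138 were on the array and 104 were tested, of which 0 passed the threshold by limma. At an unadjusted p under 0.05 lay 6 of the 104 (3 higher and 3 lower, 5.77% in all), where 3.61% of all genes were higher and 3.62% lower. Among these 6 were Slc3a2 and Slc38a1, whose probes were kept mainly through 1 genotype, so nothing is read from this count. The median difference of the 104 genes was 0.02. Under median scaling, which moved all genes by 0.17, the medians of 7 of the 12 lists kept their sign, and relative to all genes those of 12 of 12 did. Upstream of ATF4, 7 genes for eIF2 kinases, their opposing phosphatase and the exchange factor eIF2B had a median of -0.05, with 2 higher and 5 lower. Eif2b5, the catalytic subunit gene of eIF2B, differed by 0.15, and Ppp1r15a, which encodes the stress-induced phosphatase subunit GADD34 and is itself an ATF4 target, by -0.15. Eif2ak4, the gene of the amino acid sensing kinase GCN2, was not above background on any array.

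The ATF4 partners and feedback factors included Jund and Cebpg, with the highest and the lowest difference among the genes tested in these lists. Jund, which encodes an AP-1 protein able to pair with other bZIP factors, lay at 6.83 and 6.70 in the null samples, against 5.84 and 6.24 in the wild-type samples. Both null samples were higher, by 0.72 on average (SE 0.17, limma adjusted p = 0.377), and the probe was above background on 4 null and 3 wild-type arrays. Jund passed the threshold with median scaling (0.81), with the replicate number as a block (0.72) and without wild-type sample 2 (0.92), and not as reported. Cebpg, the gene of a C/EBP protein known to pair with ATF4, lay at 5.95 and 6.11 in the null samples and at 6.54 and 6.43 in the wild-type samples. Its difference was -0.45 (SE 0.16, limma adjusted p = 0.509), with both null samples lower and the probe above background on 3 null and 4 wild-type arrays. The 7 genes of this list had a median of -0.12, and Nfe2l2, Nupr1 and Trib1 were not above background on any array.

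None of the tested genes in the lists of amino acid enzymes and transporters passed the test. Among 10 enzymes of serine, one-carbon, proline and transsulfuration metabolism 9 had a difference above 0 and 7 a difference above the median of all genes (list median 0.05), and the smallest p in each direction belonged to Cbs with 0.31 and Aldh1l2 with -0.14. Amino acid transporters had a median of 0.08 over 7 genes, 6 of them above 0, where 50.6% of all genes were. These counts include Slc3a2 and Slc38a1, which were kept mainly through 1 genotype. Slc3a2, which encodes the heavy chain shared by several amino acid exchangers, had a log2 signal of 5.96 and 6.36 in the null samples and 5.30 and 5.73 in the wild-type samples. The probe was above background on 4 null arrays and 1 wild-type array, so it was kept mainly through the null arrays, and no difference is read from it. Slc38a1, a neuronal glutamine transporter gene, lay at 5.72 and 5.78 in the null samples and at 5.96 and 6.29 in the wild-type samples, and its probe was above background on 1 null and 3 wild-type arrays, so its difference is not read either. Slc7a11, the cystine exchanger gene induced by ATF4, was not above background on any array.

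The 17 aminoacyl-tRNA synthetase genes, which charge tRNAs with amino acids, had a median of 0.04, with 12 higher and 5 lower. Vars, the valine enzyme, differed by 0.40 (limma adjusted p = 0.568) with the probe used, while its other probes differed by -0.14 and -0.04. Tars, the threonine enzyme, differed by -0.26.

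None of the tested genes in stress pathways that share inputs or outputs with ATF4 passed the test, and the list medians ran from -0.02 to 0.11. The unfolded protein response of the endoplasmic reticulum had -0.02 over 11 genes, with Herpud1, a ubiquitin-domain membrane protein gene of that response, at 0.21 and the disulphide isomerase gene Pdia4 at -0.37 (limma adjusted p = 0.630). Hspa5 and Canx, chaperone genes that most cells use, were not above background on any array, so a probe at background does not show that a transcript is missing. Mitochondrial stress genes and chaperones had a median of 0.02 over 8 genes, where the protease subunit genes Clpp and Clpx differed by 0.20 and -0.13, and Fgf21 was not above background. Genes for mTORC1 and amino acid sensing had -0.02 over 11 genes, with the GATOR1 subunit genes Depdc5 at 0.19 and Nprl3 at -0.22. For the other known inputs to Ddit4, hypoxia genes had a median of -0.02 over 11 genes, with Ndrg1 at 0.25 and P4ha1 at -0.22. The P4ha1 probe was dim, above background on only 2 null and 3 wild-type arrays. Glucocorticoid-responsive genes had a median of 0.06 over 8 (6 above 0), with Klf9 at 0.30 and Sgk1 at -0.14. The p53 list had 0.07 over 7 genes (5 above 0), with Bbc3 at 0.17 and Trp53inp1 at -0.29. Immediate early genes, to which Atf3 is related in its behaviour, had 0.11 over the 4 genes tested (4 above 0), with Egr1 at 0.20, and 6 of the 11 on the array were not above background on any array.

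**Figure D5:**
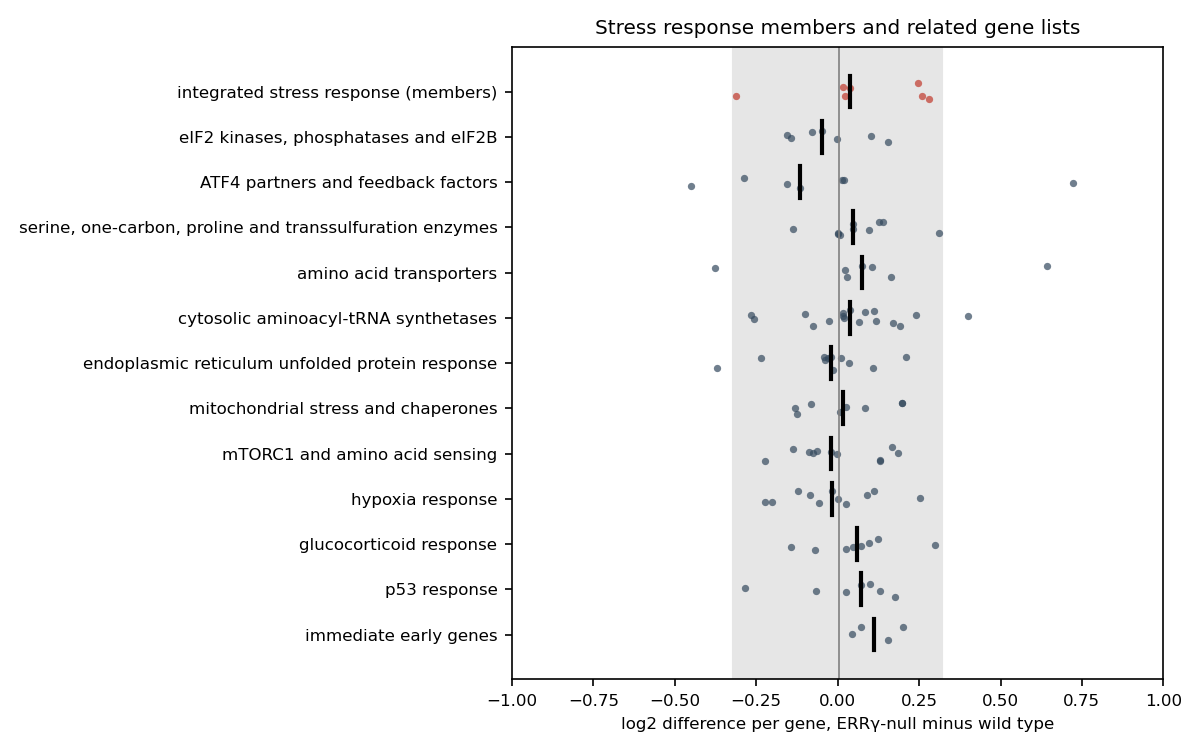
Log2 difference between ERRγ-null and wild-type cortex (horizontal axis) of each tested gene in the stress response set (top) and in 12 related lists, with black bars at the medians and grey shading from the 5th to the 95th percentile of all 8098 genes. The members lie within the shading, and the points outside it belong to Jund, Cebpg, Slc3a2, Slc38a1, Vars and Pdia4.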

How the data were processed

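Per the labels' protocols, biotinylated cRNA was prepared from total RNA and hybridised to Illumina bead arrays. The deposited unnormalized table gives, per the file headers, an average intensity (linear) and a detection p-value for every probe on every array. The submitters' processing notes name GenomeStudio, with no version or settings in the sources used here. A deposited table of intensities that the authors had brought to 1 common distribution (linear, column medians from 142.5 to 142.7, method unknown) served as an alternative.

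With limma 3.58.1 in R 4.3.3, the intensities were background-corrected by neqc from the detection p-values (offset 16), quantile-normalized and put on the log2 scale. Probes with detection p under 0.05 on at least 4 of 8 arrays were kept (11568 of 25697), a gene was its brightest kept probe, and 8098 genes were tested. Of all probes, 23846 had 1 gene symbol, 0 had several and 1851 had none. The 2 arrays of a sample were averaged, so n is 2 per genotype. Differences are ERRγ-null minus wild type, from lmFit and eBayes; two-sided p-values were adjusted by the Benjamini-Hochberg method across every gene tested (every kept probe, for single probes), with 0.05 as the threshold. The variance prior counted 14.0 degrees of freedom against 2 residual ones per gene, so an SE draws mainly on the variance of all genes. The fit was also run on data simulated from its own means and variances, which checks the code and not the assumptions of the model.

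The members and the related lists were chosen with earlier results of these data known. All members are named, and from each related list the tested gene with the smallest p in each direction. Other genes are named as not above background. Genes of like pattern were not sought, since 4 samples are too few.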

Additional observations from a re-analysis of the deposited data

How the results depend on the processing

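No member passed the threshold under any of the 17 alternatives or at an adjusted p under 0.10 (0 in each, also for single probes with 1 probe per gene or no filter on dim probes). Atf4, Asns and Ddit4 stayed above 0 and Ddit3 below it in all 17. This is no test of the sign, since settings that change only the variance or the genes tested return the reported difference. Most settings also read the same probe of a gene, while another probe had the reverse sign for Asns (-0.13) and for Ddit3 (0.13). Leaving out each sample in turn gave 0.10 to 0.40 for Atf4 and 0.15 to 0.37 for Asns. It gave 0.14 to 0.42 for Ddit4 and -0.59 to -0.04 for Ddit3. At an unadjusted p under 0.05 lay 3 of the 7 members with median scaling, where 1051 of the 8098 genes did. With no background correction 2 members did (538 genes). With b arrays only it was 1 member (515 genes), and without the dimmest array also 1 (544 genes). Apart from the left-out samples, the count of members was 0 under the other alternatives. Atf5 turned to -0.18 and Phgdh to -0.16 with first arrays only, and Psat1 to -0.0745 with b arrays only. Without the dimmest array, a choice made after seeing the data, Phgdh was -0.00764 and Psat1 -0.0180. Leaving out each sample in turn gave -0.14 to 0.19 for Atf5, -0.0863 to 0.12 for Phgdh and -0.10 to 0.17 for Psat1. The median of the 7 members was 0.22 with median scaling, 0.19 with b arrays only, 0.16 without the dimmest array and 0.00256 to 0.17 over the left-out samples. The count over all genes was 1 as reported, 20 with median scaling, 12 with the replicate number as a block, 0 to 22 over the left-out samples, and 0 with no filter, detection on all 8 arrays, first arrays only, b arrays only, robust variance estimation or the mean of all kept probes. In the related lists 1 gene passed with median scaling and with the replicate block (Jund in both). The block fit gave every gene the same variance, as did the fits without a wild-type sample. With median scaling the variance prior counted 104 degrees of freedom, so that fit came close to this. Without wild-type sample 2 the difference was 0.92 for Jund and 0.86 for Slc3a2. The Slc3a2 probe was kept mainly through the null arrays, being above background on 1 of 4 wild-type arrays. A sample left alone in its genotype was assumed to vary like the others. The labels give same-numbered samples only a number in common. The correlation of their deviations was 0.0081 over 8098 genes and 2 pairs, which cannot tell whether they shared a litter or a day of processing. The causes of these shifts were not tested. No slide was named in the headers, so the slide block was not run.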
